A study of Mus musculus with 6 samples.

Results

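The cathepsins described here are 10 of the 34745 genes in a messenger RNA sequencing table of mouse alveolar macrophages, phagocytes that live on the inner surface of the lung's air sacs. They are Ctse together with Ctsk, Ctsb, Ctsd, Ctsl, Ctss, Ctsz, Ctsc, Ctsh and Ctsa, found by matching Ensembl gene IDs to mouse symbols, and all 10 passed the filter on low counts. Ctse was selected on its measured difference between the genotypes in these same libraries, and the others were chosen by their role and level, as abundant lysosomal relatives to set beside it. The levels of the 10 genes in the 2 genotypes are therefore a description, and no test on them is used as support.

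Cells were recovered by bronchoalveolar lavage, a washing of the airways. There were 3 libraries from Phlpp1-deficient mice and 3 from WT mice. Both groups were given bleomycin at 5 mg/kg, an antibiotic whose lung toxicity serves to induce fibrosis, and lavage was done on day 7. Phlpp1 is a phosphatase known to act on the kinase Akt. The labels describe neither the Phlpp1 allele nor strain or age. Nor do they tie each library to its own animal, so the p-values reflect only library-to-library spread, part of which may be technical.

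Total counts lay between 13340861 and 15843764 per library. Phlpp1 itself had 23.2, 21.6 and 17.7 CPM (counts scaled to the TMM-adjusted library total) in Phlpp1-deficient libraries 1, 2 and 3, against 30.3, 25.3 and 28.5 CPM in WT libraries 1, 2 and 3. It did not pass the test over all genes (log2 difference -0.43, edgeR adjusted p = 0.62). Reads from any exons that the allele leaves in place would still be counted, but this was not tested. The Phlpp1 level therefore leaves the genotype labels unchecked. All 12 alveolar macrophage markers that were looked up, such as Siglecf and Marco, were counted, with summed levels of 2339.3 to 4464 FPKM in Phlpp1-deficient and 2063.5 to 2833.3 FPKM in WT libraries. FPKM, the authors' unit, is the count scaled to gene length and library total. Neutrophil markers were also present and varied widely within both genotypes, with sums of 2750.6, 4323.6 and 649 FPKM in Phlpp1-deficient libraries 1, 2 and 3, and 517, 5515.5 and 1203.7 FPKM in WT libraries 1, 2 and 3.

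Cathepsins are proteases that work mainly in the acid interior of endosomes and lysosomes. Most belong to the papain family of cysteine proteases, Ctsd and Ctse are aspartic proteases related to pepsin, and Ctsa is a serine carboxypeptidase. They are made as inactive precursors, and the cysteine proteases among them are held in check by cystatins and stefins outside the lysosome. In macrophages cathepsins digest engulfed material, trim antigens for presentation and, when released, can cut matrix proteins. Cathepsin E differs from the others in that it is found largely in endosomes and other non-lysosomal compartments, and is best known from the stomach lining, lymphoid cells and red blood cells.

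Promoter windows from RefSeq (GRCm38.p6, 250 bases before to 50 bases after each start) were matched for 7 of the 10 members, in 8 windows. Those of Ctse, Ctsb and Ctsh were not analysed here. The windows printed here are those of the cathepsins with the highest levels, Ctsd and Ctss, and of Ctsa. They were picked because they hold matches to motifs of 2 factors known from macrophages and lysosomes. In Ctsd (chr7:142387778-142388077, minus strand) and Ctsa (chr2:164833523-164833822, plus strand), capitals mark CACGTG, the E-box core of the motif bound by TFEB, a regulator of lysosomal genes. In Ctss (chr3:95526536-95526835, plus strand), capitals mark a match to GAGGAAGT on the opposite strand, the motif of PU.1, a factor that defines myeloid cells.
Ctsd promoter: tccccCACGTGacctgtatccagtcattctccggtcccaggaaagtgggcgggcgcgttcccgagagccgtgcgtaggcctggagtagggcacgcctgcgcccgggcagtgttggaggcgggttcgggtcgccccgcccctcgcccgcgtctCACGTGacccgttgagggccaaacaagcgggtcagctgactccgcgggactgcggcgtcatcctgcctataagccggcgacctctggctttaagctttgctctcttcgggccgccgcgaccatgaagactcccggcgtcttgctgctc
Ctsa promoter: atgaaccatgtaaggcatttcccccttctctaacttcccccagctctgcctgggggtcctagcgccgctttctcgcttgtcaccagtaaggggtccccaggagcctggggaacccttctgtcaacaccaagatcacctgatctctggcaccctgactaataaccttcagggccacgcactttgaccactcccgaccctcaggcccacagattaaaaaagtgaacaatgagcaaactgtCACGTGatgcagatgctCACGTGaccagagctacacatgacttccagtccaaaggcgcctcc
Ctss promoter: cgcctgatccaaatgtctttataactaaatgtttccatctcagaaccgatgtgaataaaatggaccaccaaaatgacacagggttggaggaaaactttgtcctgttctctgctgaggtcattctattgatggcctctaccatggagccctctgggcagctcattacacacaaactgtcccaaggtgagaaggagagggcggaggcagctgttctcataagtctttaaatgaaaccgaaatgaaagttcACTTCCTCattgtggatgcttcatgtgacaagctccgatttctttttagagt

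Motifs were searched on both strands, and a match is a description of letters, not evidence of binding. CACGTG was found in 3 of the 8 windows, those of Ctsa, Ctsd and Ctsl, and in 7.15% of all 32851 windows of the same length. The longer TCACGTGA, which contains CACGTG, was found in the windows of Ctsa and Ctsd and in 0.974% of all windows. Of the 2 Ctsa windows, the one printed holds it at 2 places, starting 13 bases before and 4 bases after its start site, and the other (chr2:164832622-164832921) holds no CACGTG. The CLEAR palindrome, which adds a G before and a C after TCACGTGA, was in 0 of the 8 windows and in 0.326% of all. GAGGAAGT was found in the windows of Ctsc and Ctss and in 3.2% of all windows. TGANTCA, the motif of AP-1 factors, was in 0 of the 8 and in 7.81% of all.

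Ctse was far higher in Phlpp1-deficient cells. Its level was 76.3, 59.4 and 56.7 FPKM in Phlpp1-deficient libraries 1, 2 and 3, against 3.3, 8.91 and 3.91 FPKM in WT libraries 1, 2 and 3. The groups were widely separated, since the lowest Phlpp1-deficient library lay far above WT library 2, the highest of the WT libraries. Mean levels were 64.1 ± 10.6 FPKM in Phlpp1-deficient cells and 5.37 ± 3.08 FPKM in WT cells (SD, n = 3 each). These levels rest on 4386, 3536 and 3200 counts in Phlpp1-deficient libraries and 221, 505 and 247 counts in WT libraries, so counting error is small beside the spread between libraries. The fitted log2 difference was 3.52 (SE 0.46), an 11.5-fold higher level in Phlpp1-deficient cells. In such bulk samples fewer cells of a type and less RNA per cell cannot be told apart.

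The gene lies on chromosome 1 at 131638306 to 131675505 (GRCm38, plus strand; ENSMUSG00000004552). No annotated gene overlaps it and no other transcript matched it at 95% identity over at least 150 bases. Among the 14037 tested genes its adjusted p in the edgeR fit was 0.0661, above the threshold of 0.05, and it ranked 21 by p and 12 by size of a positive log2 difference. It passed with DESeq2 (adjusted p = 8.88e-14), with library totals in place of TMM (edgeR adjusted p = 0.0328), and with limma on log2(FPKM + 1) (adjusted p = 0.0148). WT library 2 weighed on this value. Without it the log2 difference was 4.21 and the edgeR adjusted p was 0.00649. Over the 14 alternatives the adjusted p ranged from 8.88e-14 to 0.374, and the log2 difference from 3.24 to 4.21. Ctse passed in 5 of them and did not pass in 9. As Ctse was selected on this same contrast, these p-values describe the fits and are not support.

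Of the 10 cathepsins, 0 passed the edgeR test and 1, Ctse, had an unadjusted p under 0.05. Over all tested genes 14 passed (0.0997%), 7 higher in Phlpp1-deficient cells (0.0499%) and 7 lower (0.0499%), a total that was 4, 7 and 32 without Phlpp1-deficient libraries 1, 2 and 3 and 1 without WT library 3. DESeq2 called 1 of the 10, again Ctse, and 1.02% of all genes, 0.481% higher and 0.54% lower in Phlpp1-deficient cells. The groups did not overlap for 1 of the 10, Ctse, and for 11.1% of all tested genes, 4.57% with the Phlpp1-deficient libraries higher. Because Ctse was listed for this contrast, nothing is read from these counts.

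**Figure D1:**
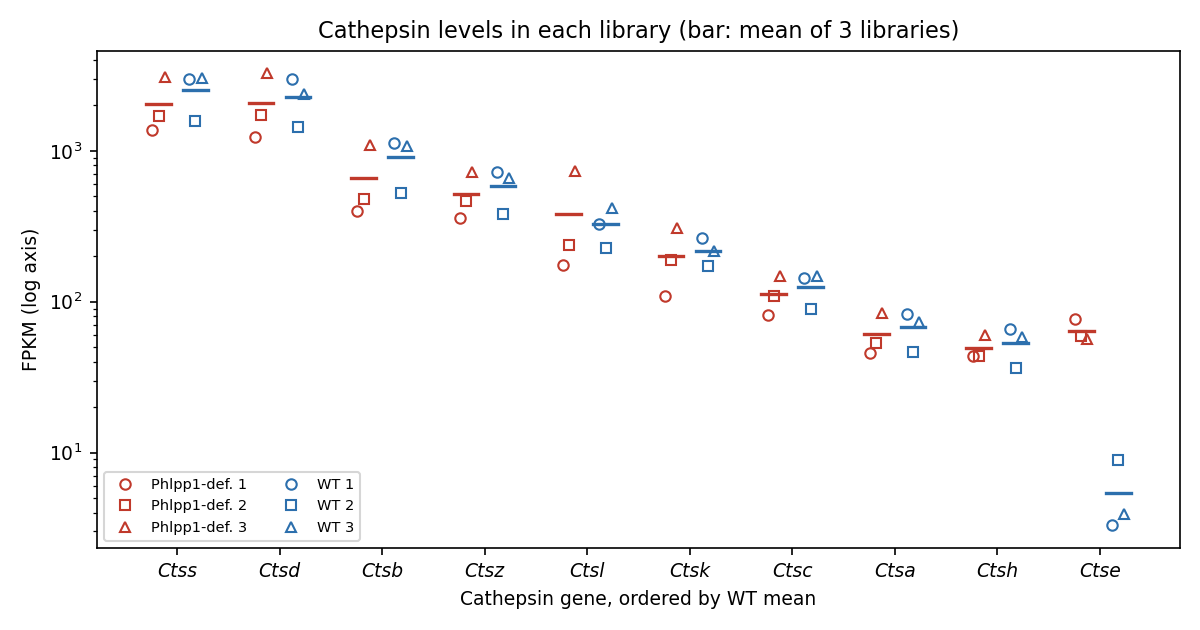
Level of each cathepsin in FPKM (log axis) in the 3 Phlpp1-deficient libraries (red, left of each pair) and the 3 WT libraries (blue), with a bar at the mean of each group and a symbol for the library number. Ctse lies between 56.7 and 76.3 FPKM in Phlpp1-deficient and between 3.3 and 8.91 FPKM in WT libraries, while the ranges of the 2 groups overlap for each of the other genes.

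The order of the levels in FPKM placed Ctse differently in the 2 genotypes. In Phlpp1-deficient cells Ctse ranked 8 of 10, below Ctsc without overlap and within the range of Ctsa (45.8 to 84.1 FPKM). In WT cells it ranked 10 of 10 and lay below the lowest library of Ctsh (36.3 FPKM). This order depends on the gene lengths behind FPKM, which were 4232 bases for Ctse, 6851 for Ctsh and 9533 for Ctsa. CPM is not scaled to length. In CPM the Phlpp1-deficient mean of Ctse, 269.9, lay below those of Ctsk (304), Ctsh (336) and Ctsa (579.8). In FPKM the other 9 kept one order apart from the top pair: Ctsd and Ctss led in both groups, followed by Ctsb, Ctsz, Ctsl, Ctsk, Ctsc, Ctsa and Ctsh. Within this order most neighbours overlapped. In both genotypes all libraries of the top pair lay above all libraries of Ctsb. In WT cells Ctsk and Ctsc did not overlap, nor did Ctsc and Ctsa.

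Ctse as a share of the summed FPKM of the 10 cathepsins was 1.97%, 1.17% and 0.593% in Phlpp1-deficient libraries 1, 2 and 3, against 0.0378%, 0.197% and 0.0485% in WT libraries 1, 2 and 3. A ratio taken within a library does not depend on how libraries are scaled. The log2 ratio of Ctse to the other 9 was -6.47 ± 0.88 in Phlpp1-deficient cells and -10.45 ± 1.29 in WT cells (SD, n = 3 each), a difference of 3.98. The 2 groups did not overlap in this ratio, but the libraries of each group spread widely. Among Phlpp1-deficient libraries the sum of the 9 relatives spread more than Ctse did, and among WT libraries Ctse spread more than that sum.

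Ctsd, the main aspartic protease of lysosomes, had 1226.2, 1719.7 and 3260.3 FPKM in Phlpp1-deficient libraries 1, 2 and 3, against 2999.9, 1446.2 and 2382.9 FPKM in WT libraries 1, 2 and 3. It is the closest relative of Ctse in this set by protease class, and its groups overlapped, with Phlpp1-deficient library 3 highest and library 1 lowest of all 6. The log2 difference was -0.13 (SE 0.41), and it turned positive without Phlpp1-deficient library 1 (0.14) or WT library 1 (0.07).

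Ctss, a cysteine protease known for cutting the invariant chain during antigen presentation, had 1365.2, 1707.5 and 3078.7 FPKM in Phlpp1-deficient libraries 1, 2 and 3, against 2989.1, 1583.8 and 3024.1 FPKM in WT libraries 1, 2 and 3. One library of each genotype stood apart from the others of its group, high in Phlpp1-deficient library 3 and low in WT library 2. The log2 difference was -0.3 (SE 0.37). Ctsk, the collagen-cutting cathepsin best known from osteoclasts, is its neighbour on chromosome 3, where the genes lie 17.4 kb apart. Ctsk had 109.8, 188 and 308 FPKM in Phlpp1-deficient libraries 1, 2 and 3, against 264, 172 and 217 FPKM in WT libraries 1, 2 and 3. Its log2 difference was -0.11 (SE 0.36), and the order of the libraries within each genotype was that of Ctsd.

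Ctsb, an abundant cysteine protease that can also trim dipeptides from protein ends, had 399, 481 and 1096.3 FPKM in Phlpp1-deficient libraries 1, 2 and 3, against 1126.1, 527 and 1071.3 FPKM in WT libraries 1, 2 and 3. Its log2 difference of -0.46 (SE 0.44) was the lowest of the 10, and it was -1.01 without Phlpp1-deficient library 3 and -0.19 without Phlpp1-deficient library 1. Ctsl, a cysteine endopeptidase, had 174, 237 and 735 FPKM in Phlpp1-deficient libraries 1, 2 and 3, against 327, 228 and 419 FPKM in WT libraries 1, 2 and 3. Its value was set by 1 library: the log2 difference was 0.23 (SE 0.53) with all libraries and -0.63 without Phlpp1-deficient library 3. It was -0.01 with limma on log2(FPKM + 1).

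Among Ctsz, Ctsc, Ctsh and Ctsa, Ctsz had the highest level in both genotypes and ranked 4 of 10. Ctsz, a carboxypeptidase, had 359, 463 and 723 FPKM in Phlpp1-deficient libraries 1, 2 and 3, against 723, 379 and 662 FPKM in WT libraries 1, 2 and 3. Ctsc, the dipeptidyl peptidase that activates the serine proteases of leukocyte granules, averaged 113 ± 32.9 FPKM in Phlpp1-deficient and 126 ± 32.3 FPKM in WT cells (SD, n = 3 each). Ctsh, an aminopeptidase also known from surfactant-making type II cells of the lung, averaged 49.3 ± 9.75 FPKM in Phlpp1-deficient and 53.5 ± 15.3 FPKM in WT cells (SD, n = 3 each). Ctsa, which protects lysosomal beta-galactosidase and neuraminidase from breakdown, averaged 61.1 ± 20.3 FPKM in Phlpp1-deficient and 67.5 ± 18.7 FPKM in WT cells (SD, n = 3 each). Their log2 differences lay between -0.19 and -0.12, each smaller than its SE.

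For the 9 relatives together, 8 log2 differences were below 0 and 1 above, as were 54.3% of all tested genes below 0. The median was -0.14, beside -0.02 over all tested genes, and each of the 9 had an edgeR adjusted p of 1. Their standard errors of 0.24 to 0.53 on the log2 scale mean that moderate differences in either direction could not be detected with these libraries.

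**Figure D2:**
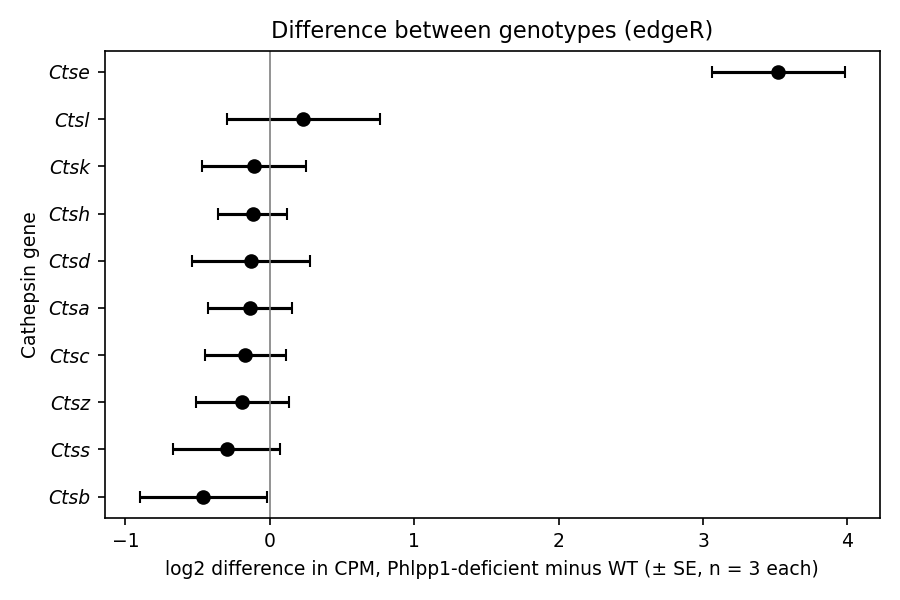
Log2 difference in CPM of each cathepsin, Phlpp1-deficient minus WT, with its standard error from the edgeR fit (n = 3 libraries each). Ctse stands at 3.52 and the other genes lie between -0.46 and 0.23, all but Ctsb within 1 standard error of 0.

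Within each genotype the 9 relatives moved together, a pattern that does not involve the contrast used to list them. All 9 were lowest in library 1, intermediate in library 2 and highest in library 3 among the Phlpp1-deficient libraries, and all 9 were lowest in library 2 among the WT libraries. Of all tested genes, 23.5% were lowest of WT in library 2 and highest of Phlpp1-deficient in library 3, and 14.4% had the whole order. Between Phlpp1-deficient libraries 3 and 1 the ratio of CPM in library 3 to library 1 was 1.41 for Ctsh, 2.68 for Ctsd and 4.26 for Ctsl. Between WT libraries 1 and 2 the ratio of library 1 to library 2 ran from 1.25 for Ctsl to 1.87 for Ctsb. The genes share these libraries and are not independent of each other.

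Ctse did not follow that order. Among the Phlpp1-deficient libraries it was highest in library 1, where the 9 relatives were lowest, and among the WT libraries it was highest in library 2, where they were lowest. In log2 CPM it stood 0.23 above the mean of its genotype in Phlpp1-deficient library 1 and 0.99 above it in WT library 2. The spread within genotypes was wide for most of the 10. The within-genotype SD of log2 CPM was 0.81 for Ctsl, 0.65 for Ctsb, 0.63 for Ctse and 0.31 for Ctsh, beside a median of 0.28 over all tested genes.

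**Figure D3:**
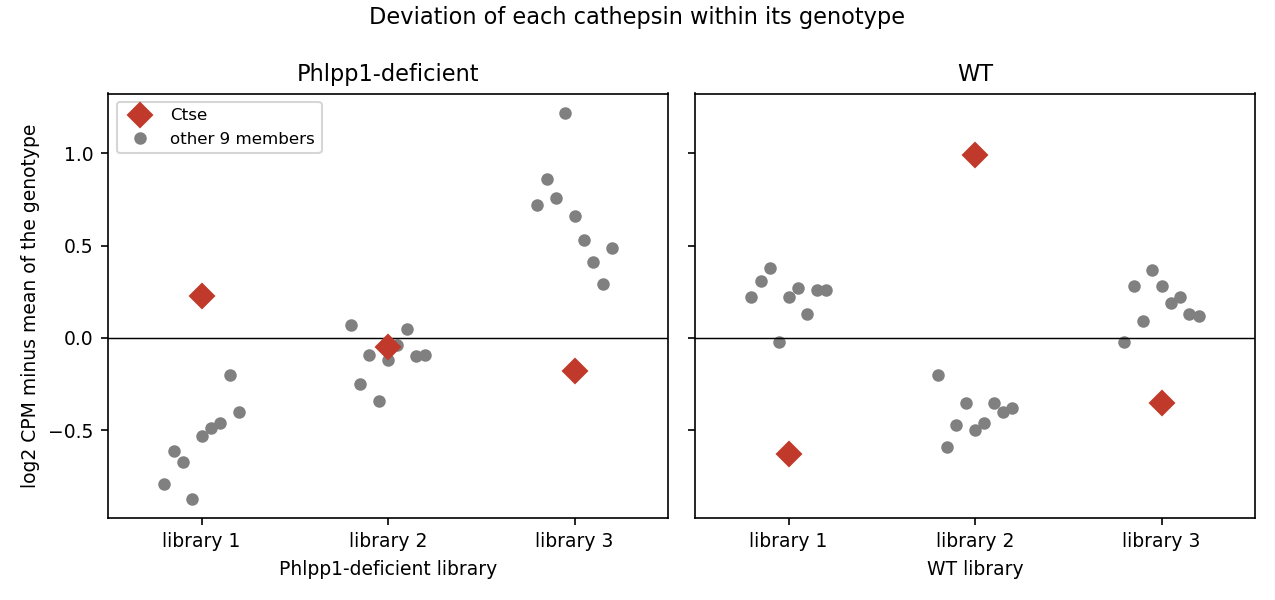
Log2 CPM of each cathepsin minus its mean over the 3 libraries of the same genotype, with Phlpp1-deficient libraries on the left and WT libraries on the right. The 9 relatives (grey) are all below 0 in Phlpp1-deficient library 1 and WT library 2 and all above 0 in Phlpp1-deficient library 3, while Ctse (red diamonds) is at 0.23, 0.99 and -0.18 in those libraries.

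The summed level of the 9 relatives was 3804.1, 5002.3 and 9493.7 FPKM in Phlpp1-deficient libraries 1, 2 and 3, against 8720.8, 4508.6 and 8055.5 FPKM in WT libraries 1, 2 and 3. The 3 libraries with the lowest sums, Phlpp1-deficient 1 and 2 and WT 2, were those with the highest neutrophil marker sums, given above. Markers of monocyte-derived macrophages, most abundantly Spp1 and the C1q genes, had sums of 1335, 1462.9 and 3216.7 FPKM in Phlpp1-deficient libraries 1, 2 and 3, against 3360.7, 1528.4 and 3747.7 FPKM in WT libraries 1, 2 and 3. These were low in the same 3 libraries, and 12 of 12 members had a log2 difference below 0 (median -0.68). Not every member had that order of libraries: Ccr2, a chemokine receptor of monocytes, had 17.7, 17.6 and 17.5 FPKM in Phlpp1-deficient libraries 1, 2 and 3, against 27.4, 21.9 and 30.9 FPKM in WT libraries 1, 2 and 3. Ly6c2, also on this list, was highest in WT library 2. It had 27.6, 25 and 27.3 FPKM in Phlpp1-deficient libraries 1, 2 and 3, against 33.9, 89.95 and 53.2 FPKM in WT libraries 1, 2 and 3. The alveolar macrophage marker sum was not low in all of Phlpp1-deficient libraries 1 and 2 and WT library 2. Its highest value, 4464 FPKM, was in Phlpp1-deficient library 2. Of its members, 12 of 12 had a log2 difference above 0 (median 0.48). Most of each sum was Chil3, with 1631.1, 3117.5 and 2616.4 FPKM in Phlpp1-deficient libraries 1, 2 and 3, against 1366.8, 2228.9 and 1103.7 FPKM in WT libraries 1, 2 and 3. In mean log2 CPM, which gives each gene the same weight, the list was lowest in WT library 2 (6.38) and Phlpp1-deficient library 1 (6.58). The other libraries had 6.78 to 7.71. The part of cell makeup in the cathepsin levels was not tested.

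Markers of other cell types were also set beside Ctse. B cell markers, such as Pax5 and Ebf1, had sums of 359.5, 91.6 and 121 FPKM in Phlpp1-deficient libraries 1, 2 and 3, against 100.1, 33.8 and 41.8 FPKM in WT libraries 1, 2 and 3, with 9 of 9 members above 0 in log2 difference (median 1.59). Among Phlpp1-deficient libraries both the B cell sum and Ctse were highest in library 1, whereas among WT libraries the B cell sum was highest in library 1 and Ctse in library 2. Across genotypes, Phlpp1-deficient library 2 had a B cell sum of 91.6 FPKM and a Ctse level of 59.4 FPKM, against 100.1 and 3.3 FPKM in WT library 1. Lung epithelial markers had sums that did not overlap between the groups, of 486, 1421.8 and 541 FPKM in Phlpp1-deficient libraries 1, 2 and 3 and 318, 304 and 343 FPKM in WT libraries 1, 2 and 3 (10 of 10 members above 0 in log2 difference, median 0.59). Most of each sum was Scgb1a1, the secretoglobin of airway club cells, with 369.7, 1223.1 and 417 FPKM in Phlpp1-deficient libraries 1, 2 and 3, against 190.01, 226 and 251 FPKM in WT libraries 1, 2 and 3. Of the 10 genes, Scgb1a1 and Scgb3a2 did not overlap between the groups and the other 8, Epcam and Sftpc among them, did. Over all tested genes the groups did not overlap for 11.1%, with the Phlpp1-deficient libraries higher for 4.57%. Phlpp1-deficient library 2 had the highest epithelial sum, while its Ctse level of 59.4 FPKM was close to the 56.7 FPKM of library 3. The part of B cells or epithelial cells in the Ctse difference was not tested.

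Erythroid markers had sums of 276, 3906.5 and 834 FPKM in Phlpp1-deficient libraries 1, 2 and 3, against 361, 5974.9 and 381 FPKM in WT libraries 1, 2 and 3. Among Phlpp1-deficient libraries the sum was lowest in library 1, where Ctse was highest, and among WT libraries it was highest in library 2, where Ctse was also highest. The part of erythroid cells in the Ctse levels was not tested. Dendritic cell markers ranged from 118 to 231 FPKM in Phlpp1-deficient and from 109.7 to 175 FPKM in WT libraries, and T cell markers from 408 to 656 FPKM in Phlpp1-deficient and from 386 to 554 FPKM in WT libraries. For both lists the groups overlapped. Eosinophil and mast cell markers ranged from 35.9 to 131 FPKM in Phlpp1-deficient and from 26.8 to 44.1 FPKM in WT libraries. Most of each sum was Ear1. Of the 2 members tested, Ear1 overlapped between the groups and Prg2 did not, beside 11.1% of all tested genes without overlap. Prg2 had 13, 51 and 13.6 FPKM in Phlpp1-deficient libraries 1, 2 and 3, against 0.452, 9.09 and 3.04 FPKM in WT libraries 1, 2 and 3. The part of eosinophils in the Ctse levels was not tested. Fibroblast markers, of interest because fibroblasts can make Ctsk, summed to 0.406 to 1.11 FPKM in Phlpp1-deficient and 0.296 to 9.82 FPKM in WT libraries. Among Phlpp1-deficient libraries this sum was lowest in library 3, where Ctsk was highest, and among WT libraries it was highest in library 1, where Ctsk was also highest. The part of fibroblasts in the Ctsk levels was not tested. Over all marker lists, 81 of 90 genes were tested, 0 were called by edgeR (0.0997% of all tested genes were), 17 had an unadjusted edgeR p under 0.05 (6.96% of all), and DESeq2 called 3, Ccr2, Cx3cr1 and Scgb3a2 (1.02% of all). None of the 90 was at 0 in all libraries.

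**Figure D4:**
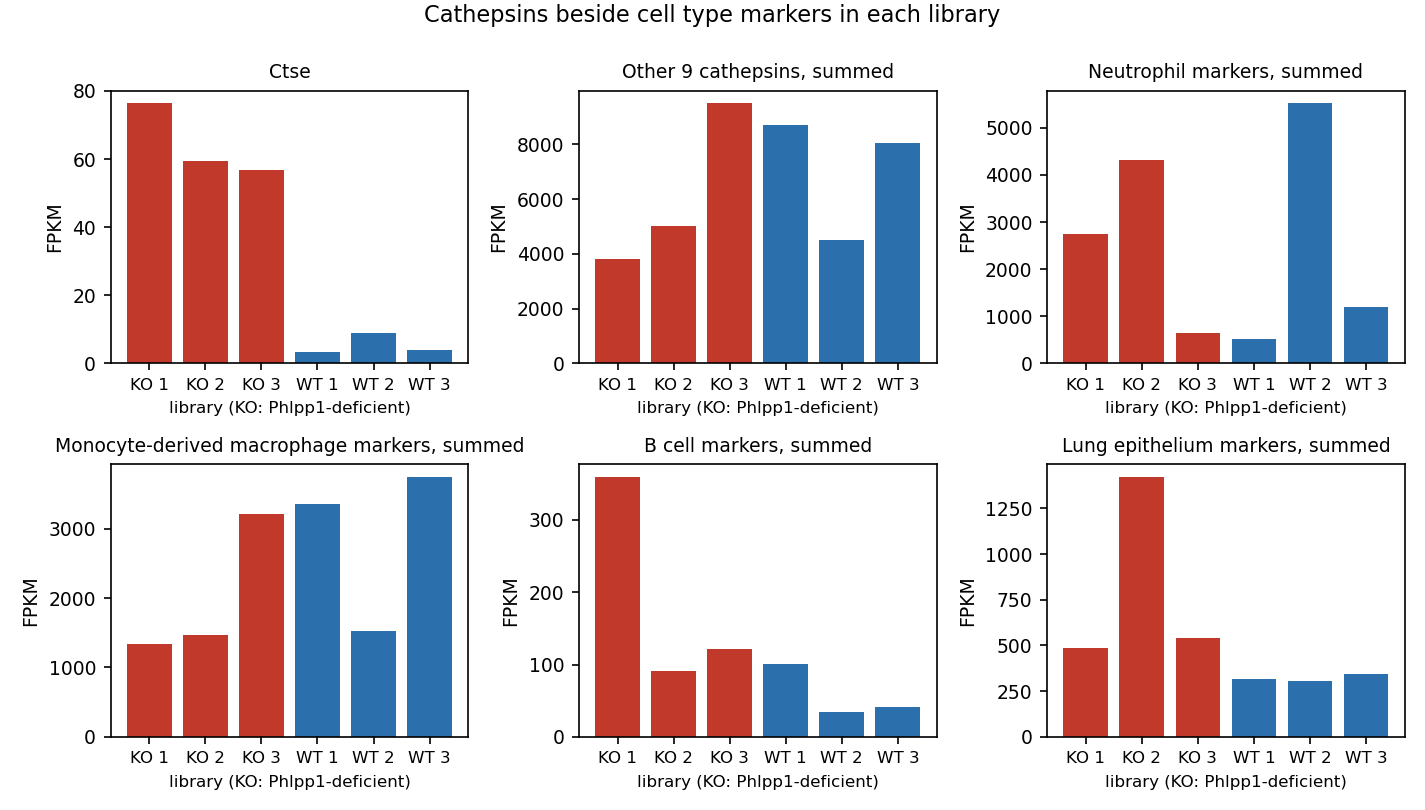
Ctse, the summed level of the 9 other cathepsins and the summed levels of 4 marker lists, in FPKM, in the 3 Phlpp1-deficient libraries (red, KO) and the 3 WT libraries (blue). The sums of the 9 cathepsins and of the monocyte-derived macrophage markers are low in Phlpp1-deficient libraries 1 and 2 and WT library 2. The neutrophil marker sum is high there, whereas Ctse is above 56 FPKM only in the Phlpp1-deficient libraries.

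Around the cathepsins, 45 genes were listed as other cathepsins, inhibitors, partners in processing and sorting, and regulators. Of these 43 were matched and 28 tested, and 0 were called by edgeR or by DESeq2. An unadjusted edgeR p under 0.05 was found for 3 of the 28, beside 6.96% of all tested genes. The CPM ranges of the groups did not overlap for 5 of the 28 (Ctsw, Serpinb1a, Gnptab, Gnptg and Mitf), beside 11.1% of all tested genes. The median log2 difference of the 28 was -0.16, with 11 above 0 and 17 below. Named here are the 4 with the smallest p (Serpinb1a, Gnptab, Glb1 and Mitf) and those at 0, and the others were named after their values were seen.

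Among the 13 other cathepsins, 7 of the rodent placental group (Ctsj, Ctsm, Ctsr, Cts3, Cts6, Cts7 and Cts8) had 0 counts in every library. Ctsw, a cathepsin of cytotoxic lymphocytes, had 109.7, 76 and 103 FPKM in Phlpp1-deficient libraries 1, 2 and 3, against 119.8, 124 and 109.9 FPKM in WT libraries 1, 2 and 3. Ctsg, a serine protease of neutrophil granules, had 30 counts in Phlpp1-deficient library 2 and 0 counts in the other 5 libraries.

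Cystatins, stefins and serpins listed as inhibitors gave 5 log2 differences above 0 and 3 below among 8 tested, and BC117090 had 0 counts in every library. Cst3 (cystatin C) and Cstb (stefin B) were abundant, with means of 309.9 ± 15 and 275 ± 59 FPKM in Phlpp1-deficient cells and 332 ± 67.6 and 349 ± 46.4 FPKM in WT cells (SD, n = 3 each). Serpinb1a, a serpin that blocks leukocyte serine proteases, had 20.3, 23 and 19.8 FPKM in Phlpp1-deficient libraries, against 19, 9.86 and 14.1 FPKM in WT libraries (log2 difference 0.56, SE 0.21, edgeR adjusted p = 0.62). Stfa2l1, a stefin, ranged from 3.44 to 120.04 FPKM in Phlpp1-deficient and from 0.915 to 124 FPKM in WT libraries. It was high in Phlpp1-deficient libraries 1 and 2 and WT library 2, those with the most neutrophil markers, and low where the 9 cathepsins were high. The stefin A genes are near-identical copies, so their counts are uncertain.

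The 12 genes of processing, sorting and partnership had 5 log2 differences above 0 and 7 below. Gnptab, a subunit of the enzyme that builds the mannose 6-phosphate tag which sends cathepsins to lysosomes, had 12, 10.9 and 12.3 FPKM in Phlpp1-deficient libraries, against 14.7, 13.1 and 16.8 FPKM in WT libraries (log2 difference -0.35, SE 0.13, edgeR adjusted p = 0.634). Glb1, the beta-galactosidase that Ctsa protects, had 20.8, 21.5 and 26 FPKM in Phlpp1-deficient libraries 1, 2 and 3, against 49.9, 20.4 and 44.5 FPKM in WT libraries 1, 2 and 3. The groups overlapped because of WT library 2, the lowest of all 6 in FPKM. In CPM that library had 53.4, within the Phlpp1-deficient range of 48.6 to 61.2. The log2 difference of Glb1 was -0.74 (SE 0.28, edgeR adjusted p = 0.638). Of the 28 tested genes, 9 had the same order of libraries as the cathepsins, beside 14.4% of all tested genes. They were Cstb, Glb1, Gnptg, Grn, Lgmn, M6pr, Mitf, Psap and Sort1. The order can rest on small steps, as for Gnptg with 39.6, 40.9 and 41.5 CPM in Phlpp1-deficient libraries 1, 2 and 3. Lgmn is the protease that matures several cathepsins, and Psap codes for the saposin precursor.

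All 5 regulators had log2 differences below 0. Mitf, a relative of TFEB, had 3.55, 3.79 and 4.3 FPKM in Phlpp1-deficient libraries, against 4.89, 3.89 and 5.58 FPKM in WT libraries (log2 difference -0.31, SE 0.15, edgeR adjusted p = 0.806). Its groups overlapped in FPKM and were only just apart in CPM, with 42.9 in Phlpp1-deficient library 3 and 43.1 in WT library 2. The groups for Tfeb itself overlapped, at 6.11, 5.07 and 4.23 FPKM in Phlpp1-deficient libraries 1, 2 and 3 and 4.59, 6.11 and 4.58 FPKM in WT libraries 1, 2 and 3.

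By profile, the genes closest to Ctse were Ren1, Olfr56, Agpat4, Plekha6 and Itgad, out of 10822 compared. Closeness was the root-mean-square distance between log2 CPM values, each centred on its mean over the 6 libraries, and was 0.55, 0.67, 0.75, 0.75 and 0.77, beside a median distance of 1.94. Since the Ctse profile is mostly the difference between genotypes, these are largely genes with a difference of similar size in log2 CPM. In the edgeR fit the log2 difference of Ren1 was larger, 8.05 beside 3.52 for Ctse. The log2 CPM values used a prior count of 2, which shrinks differences for genes at 0 counts in a group. Ren1, which codes for renin, had 41, 30 and 25 counts in Phlpp1-deficient libraries and 0 counts in each WT library. Plekha6, an adaptor protein gene, had 1.72, 2.42 and 2.6 FPKM in Phlpp1-deficient libraries, against 0.357, 0.299 and 0.303 FPKM in WT libraries. Agpat4, an acyltransferase of phospholipid synthesis, had 7.06, 11.2 and 11.8 FPKM in Phlpp1-deficient libraries, against 1.25, 1.05 and 1.38 FPKM in WT libraries. Itgad, the integrin alpha D chain of myeloid cells, had 9.16, 10.5 and 12.8 FPKM in Phlpp1-deficient libraries, against 0.996, 0.488 and 0.721 FPKM in WT libraries. Unlike Ctse, Plekha6, Agpat4 and Itgad passed the edgeR test, with adjusted p of 0.00606, 0.00849 and 0.00556.

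Ren1 and Plekha6 both lie on chromosome 1 near Ctse, 1.68 Mb and 1.49 Mb away, and Phlpp1 lies 25.2 Mb from Ctse on the same chromosome. As the labels give neither strain nor allele, a difference carried by chromosome 1 sequence linked to the Phlpp1 allele and one due to the loss of Phlpp1 cannot be told apart. Within 1 Mb of Ctse, a window chosen after the data were seen, 29 other genes were tested. Of these 0 were called by edgeR (0.0997% of all genes were), 6 had an unadjusted edgeR p under 0.05 (6.96% of all), and 2 were called by DESeq2 (1.02% of all), and their median log2 difference was 0.06. The nearest, Rab7b, a small GTPase of endosome and lysosome traffic, starts 13.2 kb from the end of Ctse. It had 3.41, 1.98 and 5.95 FPKM in Phlpp1-deficient libraries, against 10.1, 7 and 12.1 FPKM in WT libraries, the direction opposite to Ctse (log2 difference -1.38, edgeR adjusted p = 0.458, DESeq2 adjusted p = 0.0481). Il10, the gene of an inhibitory cytokine, had 8.42, 4.4 and 1.2 FPKM in Phlpp1-deficient libraries 1, 2 and 3, against 0.723, 0.855 and 0.818 FPKM in WT libraries 1, 2 and 3 (log2 difference 2.52, edgeR adjusted p = 0.435, DESeq2 adjusted p = 0.0159). Rab7b and Il10 were named after their values were seen.

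The other cathepsins with their places on GRCm38 are Ctsk (chromosome 3, 95499256 to 95509362), Ctss (chromosome 3, 95526786 to 95556403), Ctsd (chromosome 7, 142375911 to 142388038), Ctsc (chromosome 7, 88278085 to 88310888), Ctsa (chromosome 2, 164832873 to 164841032), Ctsz (chromosome 2, 174427493 to 174439039), Ctsh (chromosome 9, 90054152 to 90076089), Ctsl (chromosome 13, 64359337 to 64370890) and Ctsb (chromosome 14, 63122462 to 63145923). Among counted genes, those on the opposite strand overlap Ctsb (Fdft1), Ctsz (Nelfcd) and Ctsa (Neurl2 and Pltp), and the pseudogene Hmgb1-ps5 overlaps Ctss. Reads from the pairs on opposite strands cannot be told apart without strand. Hmgb1-ps5 lies on the same strand as Ctss, so strand would not separate that pair. Ctsl transcripts matched other genes over 191 bases at most, at 95.3% identity for that match, so a small part of its counts is uncertain.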

How the data were processed

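RNA from 6 libraries of lavage macrophages, 3 Phlpp1-deficient and 3 WT, was sequenced. The deposited table gives whole-number counts per gene and, per the file headers, FPKM values for the same libraries. HISAT2, StringTie 1.3.0, edgeR and the build mm10 are named, without roles, in the submitters' processing notes. The annotation and strand setting were not given in the sources used here. FPKM equalled the counts divided by library total and gene length within a relative 0.001 for 9265 of 9265 genes with over 100 counts in every library. Symbols and coordinates came from GENCODE M21 (GRCm38, the same assembly), which matched 34344 IDs and left 401 without a symbol.

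Counts were tested with edgeR 4.0.16 in R 4.3.3 (filterByExpr, TMM, robust quasi-likelihood fit, Benjamini-Hochberg adjustment, threshold 0.05) over 14037 genes. Standard errors were the absolute log2 difference over the root of the F statistic. DESeq2 1.42.0 and limma 3.58.1 on log2(FPKM + 1) were among the alternatives, with other filters and scalings, a block for the replicate number and each library left out. The fit was tested on simulated data. Libraries of a group differed beyond sampling noise (lowest chi-square per gene 30.58).

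The members and lists were chosen with earlier results of these data known. The rule for named genes took Phlpp1, all members, list genes past the threshold or else the 4 with the smallest p, those at 0 in every library, and the 5 profiles nearest to Ctse with at least 1 FPKM in a group. Of the listed cell type markers, 1 is not reported here.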

Additional observations from a re-analysis of the deposited data

How the results depend on the processing

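The count of called genes, 14 in the main analysis, was 172 with DESeq2, 36 without a filter on low counts, 27 with limma on log2(FPKM + 0.1), 23 with limma on log2(FPKM + 1) and between 1 and 32 when a library was left out. Whether replicate numbers pair the libraries is not known. Same-numbered libraries deviated from their group means with correlations of -0.125, 0.334 and 0.295. For libraries with different numbers the correlations ran from -0.472 to 0.341. So few values cannot decide the question. With the replicate number as a block 1 gene was called, and the log2 difference of Ctse was 3.69 (edgeR adjusted p = 0.14). Ctse stayed above 0 in all 14 alternatives. It passed in 5 and did not pass in 9, which is a description since Ctse was selected on this contrast. The 5 were DESeq2 (3.53), library totals (3.58), the fit without WT library 2 (4.21) and 2 limma fits. The limma values were 3.44 on log2(FPKM + 1) and 3.68 on log2(FPKM + 0.1). Over the libraries left out the log2 difference of Ctse lay between 3.24 and 4.21. The log2 ratio of Ctse to the other 9 lay between 3.52 and 4.71 over its 9 alternatives.

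The sign of the small differences depended on single libraries. With libraries left out, the ranges were -0.41 to 0.04 for Ctsa, -0.38 to 0.03 for Ctsc, -0.59 to 0.14 for Ctsd, -0.27 to 0.02 for Ctsh, -0.52 to 0.19 for Ctsk, -0.63 to 0.58 for Ctsl, -0.48 to 0.03 for Ctsz and -0.64 to 0.02 for the log2 summed FPKM of the 9 (-0.27 with all). Ctsl was also below 0 with both limma fits (-0.01 each) and with the replicate block (-0.03). Ctsb and Ctss stayed below 0 in all 14 alternatives, with ranges of -1.01 to -0.19 and -0.69 to -0.07 when a library was left out. The pathway list had 0 calls in each of its 14 alternatives. With 3 libraries in each group, differences of the size of these standard errors could not be detected.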
